A study of Mus musculus with 30 samples.

Results

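Cells of an epithelium hold together through E-cadherin, the product of Cdh1, and cells of a mesenchyme carry N-cadherin, intermediate filaments of vimentin and a fibronectin matrix instead. The zinc-finger repressors of the Zeb and Snail families bind E-boxes in the promoters of epithelial genes such as Cdh1 and lower their transcription, and Esrp1 keeps the epithelial splice forms of many transcripts. Mouse embryonic stem cells grow as compact colonies that express E-cadherin and EpCAM, and a shift from Cdh1 to Cdh2 is known from gastrulation, when cells leave the epiblast.

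The levels of 10 genes of this system were followed in mouse embryonic stem cells in which regulators of cohesin were removed for a day. The members were the rows of the gene count table whose identifiers carry the symbols Cdh1, Epcam and Esrp1 (epithelial), Cdh2, Vim and Fn1 (mesenchymal), and Zeb1, Zeb2, Snai1 and Snai2 (repressors), 10 of 55421 genes in all. The rule for membership is the symbol alone, but the genes were picked with earlier results of these data known. All 10 passed the filter on low counts, which left 19868 genes for testing. The stem cell label was compared with summed levels of marker genes, in CPM (counts scaled to library size). The 10 pluripotent stem cell markers, Pou5f1, Sox2 and Nanog among them, summed to between 3740 and 6720 CPM in a library. Primitive endoderm markers summed to between 427 and 661 CPM, and neural progenitor markers to between 151 and 294 CPM. Fibroblast markers reached at most 45.6 CPM and mesoderm markers 35.8 CPM. No pluripotent marker was at 0 in any group, but no primitive endoderm marker was either, so presence alone does not check the label.

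RNA was sequenced from 5 lines of E14 cells, a male line of 129P2/Ola background, kept on gelatin in serum with LIF and the inhibitors PD0325901 and CHIR-99021. Every line expressed Tir1, the plant receptor through which auxin drives proteins with an AID tag to degradation. The line named TIR1 (EN148.10) carried no degron. Cohesin is a ring-shaped complex that folds chromatin into loops. In PDS5AB (EN293.1) both PDS5A and PDS5B, which help to release cohesin and to stop loop extrusion, were AID-tagged, and in WAPL (CMW184) the cohesin release factor WAPL was. PDS5AB-NIPBL (EN331.2) and WAPL-NIPBL (EN382.1) carried the same AID tags and also NIPBL, the factor that drives loop extrusion, fused to FKBP, and RAD21, a cohesin subunit, fused to Halo. Each line was sampled untreated and after 24 h of treatment. The treatment was 500 µM auxin in TIR1, PDS5AB and WAPL, and 500 µM auxin with 500 nM dTAG-13, which degrades FKBP fusions, in both NIPBL lines. Each of the 10 groups had 3 libraries. Each genotype was represented by 1 line, so genotype and line cannot be told apart, and the combined treatment has no line without degrons. Degrons act on proteins, so transcript counts of the tagged genes do not check the depletion.

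Library totals ran from 19632704 to 45539021 counts, and 0 pairs of libraries held identical values. Nothing in the labels says that the 3 libraries of a group came from separate cultures, so p-values measure the spread between these libraries, which may be technical. The library numbers fall into a low set, which holds both PDS5AB groups and untreated TIR1, and a high set, which holds all others including auxin-treated TIR1. The TIR1 treatment effect, every difference from it, and the untreated comparisons of WAPL and both NIPBL lines with TIR1 therefore cross the 2 sets. For those comparisons number set and group cannot be told apart, and no value within a set exists. The treatment effect of each of the 4 degron lines lies within one set.

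Promoter sequence is shown for the epithelial gene Epcam and the repressor gene Snai1, because the E-boxes CAGGTG and CACCTG that the Zeb and Snail proteins are known to bind stand in both. The sequences are the 250 bases before the start site in the RefSeq promoter table for GRCm38.p6, which matched 4 of the 10 members (Epcam, Vim, Zeb2 and Snai1). They are written 5′ to 3′ on the strand of the gene, with E-boxes in capitals. The first lies at chr17:87635729-87635978 on the plus strand and the second at chr2:167537945-167538194 on the plus strand.
Epcam: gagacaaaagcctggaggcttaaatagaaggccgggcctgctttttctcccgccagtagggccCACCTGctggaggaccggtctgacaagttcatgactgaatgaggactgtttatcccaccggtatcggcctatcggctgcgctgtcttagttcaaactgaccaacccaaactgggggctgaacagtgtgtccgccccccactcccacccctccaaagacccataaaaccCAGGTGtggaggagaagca
Snai1: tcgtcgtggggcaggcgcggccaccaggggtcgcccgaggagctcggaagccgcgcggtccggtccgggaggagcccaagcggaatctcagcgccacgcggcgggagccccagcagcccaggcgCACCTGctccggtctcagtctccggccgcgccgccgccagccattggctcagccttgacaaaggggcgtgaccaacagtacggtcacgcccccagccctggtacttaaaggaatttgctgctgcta
Epcam had 2 E-boxes, starting 187 and 19 bases before the start site, and Snai1 had 1, starting 126 bases before it. The window of Zeb2 nearest to its annotated start, at chr2:45117443-45117692 on the minus strand, had 0, as did the other windows of Zeb2 and that of Vim. CAGGTG and CACCTG are one motif read on its 2 strands, so each place was counted once. At least 1 such motif occurred in 17.2% of 32851 promoter windows of this length (5657 windows), and at least 2 in 2.1%. The match is a description of letters, not of binding.

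Levels per length put the members far apart. In RPKM (CPM, which is the count scaled to library size, per kilobase of exon), Cdh1 averaged 162, Fn1 161 and Vim 106 over the 30 libraries, Epcam 21.5, Snai1 8.2, Zeb1 3.38, Snai2 1.4, Cdh2 0.529, Esrp1 0.377 and Zeb2 0.0451. The cells thus had abundant transcripts of the adhesion gene Cdh1 together with those of the mesenchymal genes Fn1 and Vim, while the second cadherin, Cdh2, was low. Depth differed with these levels: Fn1 had 27820 to 87627 counts in a library, whereas Zeb2 had 3 to 86, Snai2 15 to 239, Esrp1 24 to 171 and Cdh2 29 to 292. Between the lowest and the highest group mean the level varied 10.9-fold for Zeb2, 8.72-fold for Snai2, 5.9-fold for Esrp1 and 4.85-fold for Cdh2, but 1.64-fold for Zeb1 and 1.78-fold for Cdh1. In bulk RNA, fewer cells of a type and less RNA per cell cannot be told apart.

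**Figure D1:**
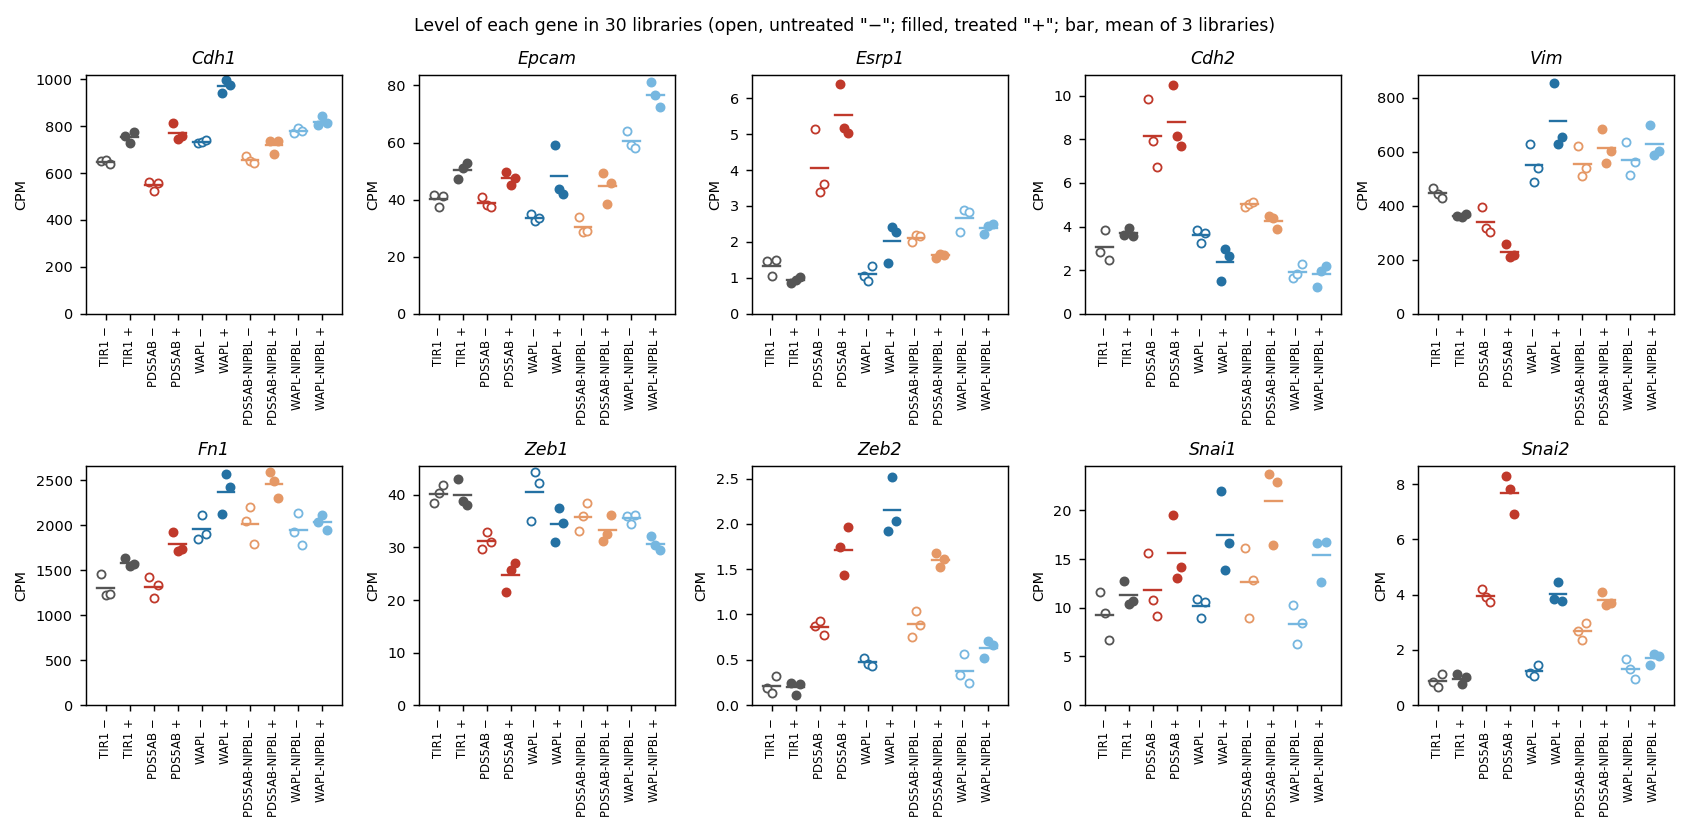
CPM (vertical axes from 0) of each of the 10 genes in all 30 libraries, by line, with open points for untreated and filled points for treated libraries and a bar at the mean of 3. Snai2 and Zeb2 are lowest in the TIR1 groups and highest in treated PDS5AB and WAPL, and Esrp1 and Cdh2 are highest in PDS5AB.

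The counts were made per gene over exons of the GENCODE vM23 annotation of GRCm38. In that build the epithelial genes were Cdh1 (ENSMUSG00000000303.12) at chr8:106603351-106670246, Epcam (ENSMUSG00000045394.9) at chr17:87635979-87651129 and Esrp1 (ENSMUSG00000040728.15) at chr4:11331933-11386783. The mesenchymal genes were Cdh2 (ENSMUSG00000024304.14) at chr18:16588877-16809246, Vim (ENSMUSG00000026728.9) at chr2:13573927-13582826 and Fn1 (ENSMUSG00000026193.15) at chr1:71585520-71653200. The repressors were Zeb1 (ENSMUSG00000024238.15) at chr18:5591860-5775467, Zeb2 (ENSMUSG00000026872.18) at chr2:44983632-45117395, Snai1 (ENSMUSG00000042821.7) at chr2:167538195-167542814 and Snai2 (ENSMUSG00000022676.7) at chr16:14705852-14709385. Counted exon length ran from 1621 bases for Snai1 to 20203 bases for Zeb2.

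Cdh1 rose in PDS5AB and in WAPL, and also, by less, with auxin in TIR1. Levels from here on are CPM, scaled by TMM factors as were the levels per length above. All adjusted p come from the quasi-likelihood test of edgeR unless another fit is named, adjusted by Benjamini-Hochberg over 19868 genes. Cdh1 stood at 562, 523 and 557 CPM in untreated PDS5AB and at 812, 747 and 758 CPM after auxin. In WAPL it went from 727, 733 and 741 CPM to 940, 996 and 976 CPM, the highest levels of the series. Treated and untreated libraries did not overlap in either line. The log2 fold change was 0.5 in PDS5AB (SE 0.0512, adjusted p = 4.05e-09) and 0.4 in WAPL (SE 0.0511, adjusted p = 2.93e-07). TIR1 itself moved from 650, 656 and 639 CPM to 759, 729 and 776 CPM, again without overlap (log2 fold change 0.22, SE 0.0511, adjusted p = 0.00263).

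With NIPBL depleted as well, differences in Cdh1 were smaller. PDS5AB-NIPBL had 673, 651 and 644 CPM untreated and 738, 679 and 735 CPM treated. That log2 difference of 0.13 was not called (SE 0.0511, adjusted p = 0.0772) but was with the replicate number as a block (adjusted p = 0.00561), by DESeq2 (0.0234) and without treated replicate 2 (0.0378). WAPL-NIPBL had 771, 792 and 777 CPM untreated and 804, 842 and 812 CPM treated (log2 difference 0.07, adjusted p = 0.479). In both lines every treated library lay above every untreated one. The effect on Cdh1 differed between lines by a direct test: it was smaller in PDS5AB-NIPBL than in PDS5AB by -0.37 on the log2 scale (SE 0.0723, adjusted p = 0.00125) and smaller in WAPL-NIPBL than in WAPL by -0.33 (SE 0.0722, adjusted p = 0.00434). Against the TIR1 effect, the PDS5AB effect was larger by 0.28 (SE 0.0722, adjusted p = 0.00467); this call was lost with no filter on low counts (adjusted p = 0.111). The same difference for WAPL was 0.18 and was not called (adjusted p = 0.0676), except by DESeq2 (0.0184), without WAPL treated replicate 1 (0.047) or with the replicate block (0.00431). In that block the TIR1 libraries share only a number.

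Epcam, which encodes a homophilic adhesion protein of epithelia and stem cells, was the one member whose rise was called in all 5 lines. Its untreated levels were 41.7, 37.4 and 41.2 CPM in TIR1, 40.9, 38.2 and 37.5 CPM in PDS5AB and 35, 32.6 and 33.5 CPM in WAPL. After auxin they were 47.3, 51.1 and 52.8 CPM in TIR1, 49.7, 45.2 and 47.6 CPM in PDS5AB and 59.3, 43.6 and 42.1 CPM in WAPL. No treated library fell within the untreated range of its line, and treated WAPL replicate 1 stood above its group. PDS5AB-NIPBL went from 34, 28.5 and 29 CPM to 49.5, 38.4 and 46 CPM, and WAPL-NIPBL from 64.1, 59.1 and 58.2 CPM to 81.2, 76.7 and 72.5 CPM. The log2 fold changes were 0.33 in TIR1 (SE 0.0989, adjusted p = 0.0178), 0.29 in PDS5AB (SE 0.099, adjusted p = 0.0173), 0.52 in WAPL (SE 0.0998, adjusted p = 0.00015), 0.55 in PDS5AB-NIPBL (SE 0.101, adjusted p = 0.000174) and 0.34 in WAPL-NIPBL (SE 0.0976, adjusted p = 0.0222).

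None of the 7 tested differences between these Epcam effects was called, with adjusted p of 0.268 between PDS5AB-NIPBL and PDS5AB and 0.353 between PDS5AB-NIPBL and TIR1; the first was called with the replicate block (adjusted p = 0.0346). Calls for Epcam in 3 lines depended on single libraries. In TIR1 the call was lost without untreated replicate 2 (adjusted p = 0.0957) or treated replicate 3 (0.0631). In PDS5AB it was lost without untreated replicate 2 (0.0523), untreated replicate 3 (0.0656) or treated replicate 1 (0.0711), and in WAPL-NIPBL without untreated replicate 2 (0.0681), untreated replicate 3 (0.0902) or treated replicate 1 (0.0861).

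Esrp1, the epithelial splicing regulator, was a low transcript that rose in PDS5AB and WAPL. WAPL had 1.05, 0.917 and 1.34 CPM untreated and 1.42, 2.41 and 2.27 CPM after auxin (log2 fold change 0.9, SE 0.213, adjusted p = 0.00133), without overlap. PDS5AB started from 5.13, 3.4 and 3.62 CPM and reached 6.38, 5.16 and 5.03 CPM, so that untreated replicate 1 lay within the treated range (log2 fold change 0.45, SE 0.174, adjusted p = 0.0348). The PDS5AB call was lost without untreated replicate 2 (adjusted p = 0.164), untreated replicate 3 (0.141) or treated replicate 1 (0.188), with no filter on low counts (0.124) and in a fit of the compared groups alone (0.0884). TIR1 went the other way, from 1.47, 1.06 and 1.49 CPM to 0.851, 0.927 and 1.03 CPM, but this was not called (log2 difference -0.52, SE 0.223, adjusted p = 0.0998). In the NIPBL lines the treated libraries had 1.55, 1.67 and 1.65 CPM against 2.01, 2.18 and 2.16 CPM in PDS5AB-NIPBL, and 2.21, 2.45 and 2.5 CPM against 2.27, 2.89 and 2.83 CPM in WAPL-NIPBL (adjusted p = 0.226 and 0.707). All treated libraries lay below all untreated ones in TIR1 and in PDS5AB-NIPBL, while the groups overlapped in WAPL-NIPBL.

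The Esrp1 effects differed between lines. Relative to the TIR1 effect, that of PDS5AB was higher by 0.97 on the log2 scale (SE 0.283, adjusted p = 0.011) and that of WAPL by 1.42 (SE 0.309, adjusted p = 0.00108). Both differences use the same TIR1 libraries. The WAPL-NIPBL effect was below the WAPL effect by -1.06 (SE 0.287, adjusted p = 0.024); this call was lost without any one of untreated WAPL replicates 1 and 2, treated WAPL replicates 2 and 3, untreated WAPL-NIPBL replicates 2 and 3 and treated WAPL-NIPBL replicate 1 (adjusted p 0.0561 to 0.0775), with no filter (0.0508) and with the compared groups alone (0.071). The matching difference for PDS5AB-NIPBL and PDS5AB, -0.83, was just short of the threshold (SE 0.273, adjusted p = 0.0505) and was called with the replicate block (adjusted p = 0.00909), by DESeq2 (0.0497) and without PDS5AB untreated replicate 1 (0.0132).

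Cdh2, the N-cadherin gene of neural and mesenchymal cells, was not called higher with treatment in any line. It fell in WAPL, from 3.86, 3.24 and 3.7 CPM to 1.5, 2.99 and 2.63 CPM, with no overlap (log2 fold change -0.58, SE 0.207, adjusted p = 0.0297). Treated replicate 1 was the lowest of these libraries, and the call was lost without it (adjusted p = 0.209), without treated replicate 3 (0.0517) without untreated replicate 1 (0.109) or 3 (0.078) and with the compared groups alone (0.115). PDS5AB kept the highest level of Cdh2, 9.85, 7.9 and 6.71 CPM untreated and 10.5, 8.13 and 7.71 CPM treated (adjusted p = 0.655). In the other lines the treated and untreated groups were at 3.59, 3.94 and 3.57 against 2.83, 3.83 and 2.48 CPM in TIR1, 4.46, 4.39 and 3.9 against 4.91, 5.01 and 5.14 CPM in PDS5AB-NIPBL, and 1.25, 1.96 and 2.21 against 1.66, 1.83 and 2.27 CPM in WAPL-NIPBL. Their adjusted p were 0.335, 0.45 and 0.916. The WAPL effect on Cdh2 was below the TIR1 effect by -0.87 (SE 0.289, adjusted p = 0.0296). That difference was lost without TIR1 untreated replicate 1 (0.0677) or 3 (0.0871), TIR1 treated replicate 2 (0.0671), WAPL untreated replicate 1 (0.0659) or 3 (0.0546), or WAPL treated replicate 1 (0.0976), and with the compared groups alone (0.0553). The PDS5AB effect was above the WAPL effect by 0.69, a difference not called (adjusted p = 0.0981) except with the replicate block (adjusted p = 0.0101), without PDS5AB untreated replicate 1 (0.0433) or without WAPL treated replicate 2 (0.0488).

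Vim, which encodes the intermediate filament protein vimentin, moved in opposite directions in PDS5AB and WAPL. PDS5AB fell from 396, 318 and 304 CPM to 259, 211 and 217 CPM, without overlap (log2 fold change -0.57, SE 0.115, adjusted p = 0.000164). WAPL had 630, 488 and 540 CPM untreated and 854, 629 and 656 CPM treated, where untreated and treated libraries overlapped: untreated replicate 1 stood above treated replicate 2 (log2 fold change 0.37, SE 0.114, adjusted p = 0.0133). The effects differed by -0.93 on the log2 scale, PDS5AB minus WAPL (SE 0.162, adjusted p = 0.000184). In both lines replicate 1 was the highest library of its group. The WAPL call was lost without untreated replicate 2 (adjusted p = 0.0801) or treated replicate 1 (0.134).

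In TIR1, Vim was at 465, 443 and 429 CPM untreated and 362, 359 and 368 CPM after auxin. The groups did not overlap, but the log2 difference of -0.3 was not called (SE 0.114, adjusted p = 0.067). It was called with no filter on low counts (adjusted p = 0.00288) and in a fit of the TIR1 libraries alone (0.000847). Relative to TIR1, the Vim effect was higher in WAPL by 0.66 (SE 0.162, adjusted p = 0.00336), and relative to PDS5AB it was higher in PDS5AB-NIPBL by 0.71 (SE 0.162, adjusted p = 0.0046). The PDS5AB effect on Vim minus the TIR1 effect was -0.27 and was not called, although 2 alternative fits called it. The fall in PDS5AB was thus not told apart from that in TIR1 by this test. PDS5AB-NIPBL had 620, 509 and 540 CPM untreated and 683, 558 and 604 CPM treated, and WAPL-NIPBL 636, 515 and 561 CPM untreated and 698, 588 and 602 CPM treated. Each treated library was above the untreated library of the same replicate number, while the groups overlapped. Both differences, 0.14 on the log2 scale, were called only with the replicate block (adjusted p = 0.435 without and 0.00339 with the block in PDS5AB-NIPBL, 0.542 and 0.00645 in WAPL-NIPBL). The difference between the Vim effects of WAPL-NIPBL and WAPL, -0.23, was likewise called only with the block (adjusted p = 0.54 and 0.00397).

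Fn1, the fibronectin gene and the member with the most counts, rose in 4 lines, the TIR1 control among them. PDS5AB went from 1420, 1190 and 1330 CPM to 1920, 1710 and 1740 CPM (log2 fold change 0.45, SE 0.0871, adjusted p = 0.000102). TIR1 went from 1460, 1220 and 1240 CPM to 1630, 1550 and 1570 CPM (0.27, SE 0.087, adjusted p = 0.0256). WAPL went from 1850, 2110 and 1900 CPM to 2120, 2570 and 2430 CPM (0.28, SE 0.087, adjusted p = 0.0129). All treated libraries lay above all untreated ones in these 3 lines. PDS5AB-NIPBL went from 2050, 2200 and 1790 CPM to 2590, 2490 and 2300 CPM, also without overlap (0.29, SE 0.087, adjusted p = 0.0171). WAPL-NIPBL overlapped, with 1930, 2140 and 1780 CPM untreated and 2040, 2110 and 1950 CPM treated (0.06, adjusted p = 0.764).

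Single libraries decided several of the Fn1 calls. The call was lost in TIR1 without untreated replicate 2 (adjusted p = 0.128), untreated replicate 3 (0.103) or treated replicate 1 (0.0745), and in WAPL without untreated replicate 1 (0.056) or treated replicate 2 (0.0675). In PDS5AB-NIPBL it was lost without untreated replicate 3 (0.144), treated replicate 1 (0.0842) or treated replicate 2 (0.0547). None of the 7 differences between Fn1 effects was called without the block. With it, the effect in WAPL-NIPBL was below that in WAPL by -0.22 (adjusted p = 0.0119, against 0.385 without the block), and the effect in PDS5AB was above that in WAPL by 0.17 (0.0319, against 0.434). The block also called PDS5AB minus TIR1 (0.17, adjusted p = 0.0218, against 0.318) and WAPL-NIPBL minus TIR1 (-0.21, 0.00938, against 0.331), where the TIR1 libraries share only a number. Exons of Fn1 overlap those of Apol7d on the opposite strand, which had at most 50 counts in a library.

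Zeb2 and Snai2 both rose in the PDS5AB, WAPL and PDS5AB-NIPBL lines, and in PDS5AB and WAPL theirs were the largest effects among the members. Snai2 encodes Slug, the Snail family repressor known from neural crest. WAPL went from 1.17, 1.06 and 1.46 CPM of Snai2 to 3.83, 4.46 and 3.78 CPM (log2 fold change 1.72, SE 0.187, adjusted p = 2.09e-08). PDS5AB went from 4.22, 3.93 and 3.75 CPM to 8.28, 7.81 and 6.92 CPM (0.95, SE 0.159, adjusted p = 1.33e-05). PDS5AB-NIPBL went from 2.69, 2.35 and 2.98 CPM to 4.1, 3.64 and 3.69 CPM (0.5, SE 0.176, adjusted p = 0.0419). In these 3 lines no treated library overlapped the untreated ones. TIR1 stayed low, with 0.845, 0.66 and 1.13 CPM untreated and 1.12, 0.769 and 1 CPM treated (adjusted p = 0.838), and WAPL-NIPBL had 1.66, 1.3 and 0.943 CPM untreated and 1.47, 1.84 and 1.77 CPM treated (adjusted p = 0.245). Both of those lines showed overlapping groups. The PDS5AB-NIPBL call was lost without untreated replicate 1 (adjusted p = 0.0932), untreated replicate 2 (0.148), treated replicate 1 (0.135), treated replicate 2 (0.0641) or treated replicate 3 (0.0704), with no filter (0.161) and with the compared groups alone (0.0586).

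The Snai2 effect of WAPL was above that of TIR1 by 1.61 on the log2 scale (SE 0.296, adjusted p = 0.000165), above that of PDS5AB (PDS5AB minus WAPL -0.77, SE 0.246, adjusted p = 0.0367) and above that of WAPL-NIPBL (WAPL-NIPBL minus WAPL -1.3, SE 0.279, adjusted p = 0.00383). The PDS5AB effect was above the TIR1 effect by 0.85 (SE 0.277, adjusted p = 0.0228). These comparisons share the WAPL or the TIR1 libraries. The PDS5AB and TIR1 difference was lost without TIR1 untreated replicate 3 (0.146), TIR1 treated replicate 2 (0.0913), PDS5AB untreated replicate 3 (0.0505) or PDS5AB treated replicate 1 (0.0579), and with no filter (0.103). The PDS5AB and WAPL difference in Snai2 was lost without any one of PDS5AB untreated replicates 1 and 2, PDS5AB treated replicates 2 and 3, WAPL untreated replicates 1 and 2 and WAPL treated replicate 2 (adjusted p 0.0537 to 0.105), and with no filter (0.103).

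Zeb2, the second member of the Zeb family of E-box repressors, had few counts in TIR1, at 0.184, 0.132 and 0.319 CPM untreated and 0.243, 0.113 and 0.238 CPM treated. WAPL rose from 0.525, 0.458 and 0.433 CPM to 1.92, 2.52 and 2.03 CPM (log2 fold change 2.18, SE 0.263, adjusted p = 1.3e-07). PDS5AB rose from 0.877, 0.926 and 0.773 CPM to 1.75, 1.44 and 1.96 CPM (1.0, SE 0.243, adjusted p = 0.00116). PDS5AB-NIPBL rose from 0.753, 1.04 and 0.884 CPM to 1.68, 1.52 and 1.61 CPM (0.85, SE 0.254, adjusted p = 0.0166). The treated and untreated libraries of these lines did not overlap. WAPL-NIPBL had 0.332, 0.564 and 0.244 CPM untreated and 0.519, 0.704 and 0.667 CPM treated, overlapping groups (log2 difference 0.73, adjusted p = 0.165), and was called only without untreated replicate 2 (0.0497). The PDS5AB-NIPBL call was lost without untreated replicate 1 (0.0804), untreated replicate 3 (0.0528) or treated replicate 1 (0.0537), and with no filter on low counts (0.0801).

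The Zeb2 effect of WAPL exceeded that of TIR1 by 2.34 on the log2 scale (SE 0.503, adjusted p = 0.00098) and that of PDS5AB (PDS5AB minus WAPL -1.18, SE 0.362, adjusted p = 0.0285). WAPL-NIPBL minus WAPL was -1.45 (SE 0.421, adjusted p = 0.0388). This last call was lost in 10 of 12 fits that each left out 1 library (adjusted p 0.0508 to 0.33), all but those without WAPL treated replicate 1 and WAPL-NIPBL untreated replicate 3, and also with no filter (0.144), with DESeq2 (0.0501) and with the compared groups alone (0.0803). The PDS5AB and WAPL difference was lost without PDS5AB untreated replicate 2 (0.0698), PDS5AB treated replicate 2 (0.0689), WAPL untreated replicate 2 (0.0608) or 3 (0.0623) or WAPL treated replicate 2 (0.0649), and with no filter (0.104). PDS5AB minus TIR1 was not called for Zeb2 (log2 difference 1.16, SE 0.484, adjusted p = 0.0749; 0.0471 without TIR1 untreated replicate 2). Exons of Zeb2 overlap those of Zeb2os on the opposite strand and of Mir5129 and Gm27761, which had at most 1, 0 and 0 counts in a library.

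Zeb1, the Zeb family member that these cells express more, fell in PDS5AB and WAPL while Zeb2 rose there. PDS5AB went from 29.8, 33 and 31 CPM to 21.6, 25.8 and 27.1 CPM, without overlap (log2 fold change -0.33, SE 0.0916, adjusted p = 0.00365). WAPL went from 35.1, 44.4 and 42.2 CPM to 31, 37.6 and 34.6 CPM, with overlap (-0.24, SE 0.09, adjusted p = 0.0434). The WAPL call was lost without untreated replicate 2 (adjusted p = 0.255), untreated replicate 3 (0.155), treated replicate 1 (0.226) or treated replicate 3 (0.126), with no filter (0.079) and with the compared groups alone (0.211). TIR1 had 38.4, 40.4 and 41.8 CPM untreated and 43, 38.9 and 38 CPM treated (adjusted p = 0.96), and PDS5AB-NIPBL 33.1, 35.9 and 38.4 CPM untreated and 31.2, 32.5 and 36.1 CPM treated (adjusted p = 0.49). Groups overlapped in both. In WAPL-NIPBL the values 36, 34.5 and 36.1 CPM untreated and 32.2, 30.5 and 29.5 CPM treated did not overlap; the log2 difference of -0.21 was not called (SE 0.0911, adjusted p = 0.17) except with the replicate block (adjusted p = 0.0122). None of the 7 differences between Zeb1 effects was called; PDS5AB minus TIR1, -0.32 (adjusted p = 0.0618), was called by DESeq2 (0.0495), without TIR1 treated replicate 3 (0.0445) and without PDS5AB treated replicate 3 (0.024). Exons of Zeb1 overlap those of Gm10125 on the opposite strand, with at most 21 counts in a library.

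Snai1, which encodes the Snail repressor, rose in WAPL and both NIPBL lines. WAPL went from 10.9, 8.96 and 10.6 CPM to 22, 13.9 and 16.6 CPM (log2 fold change 0.78, SE 0.221, adjusted p = 0.00684). WAPL-NIPBL went from 10.3, 6.24 and 8.42 CPM to 16.7, 12.6 and 16.8 CPM (0.89, SE 0.228, adjusted p = 0.0108). PDS5AB-NIPBL went from 16.1, 8.92 and 12.8 CPM to 23.7, 16.4 and 22.9 CPM (0.73, SE 0.219, adjusted p = 0.0166). Replicate 1 was the highest untreated library in each of these lines, and treated libraries exceeded all untreated ones. Calls were lost in WAPL without treated replicate 1 (adjusted p = 0.0542), in WAPL-NIPBL without untreated replicate 2 (0.0837), and in PDS5AB-NIPBL without untreated replicate 2 (0.114), treated replicate 1 (0.0798) or treated replicate 3 (0.0613). PDS5AB had 15.6, 10.8 and 9.16 CPM untreated and 19.5, 13.1 and 14.2 CPM treated, overlapping groups in which each treated library was above the untreated library of its number. That log2 difference of 0.4 was not called (SE 0.219, adjusted p = 0.138) except with the replicate block (0.000752), with no filter on low counts (0.00927) or without untreated replicate 1 (0.027). TIR1 had 11.6, 9.47 and 6.67 CPM untreated and 12.7, 10.4 and 10.7 CPM treated (adjusted p = 0.415). None of the 7 differences between Snai1 effects was called; WAPL-NIPBL minus TIR1, 0.61 (adjusted p = 0.275), was called with no filter on low counts (0.0244).

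Counted over the members, treatment moved 10 of 10 in WAPL (8 higher, 2 lower), where 32.8% of all genes tested were called (17% higher, 15.8% lower). PDS5AB had 8 of 10 (6 higher, 2 lower) against 46% of all genes (25.8% higher, 20.2% lower). PDS5AB-NIPBL had 5 of 10, all higher, against 19.5% (11.4% higher, 8.06% lower). TIR1 had 3 of 10, all higher, against 19.9% (10.4% higher, 9.59% lower), and WAPL-NIPBL 2 of 10, both higher, against 8.57% (5.11% higher, 3.45% lower). With the replicate block the counts were 7 in PDS5AB-NIPBL, beside 6377 of 19868 genes, and 4 in WAPL-NIPBL, beside 4152. Leaving out single libraries gave 6 to 9 members in PDS5AB and in WAPL, 1 to 4 in PDS5AB-NIPBL, 1 to 3 in TIR1 and 1 to 2 in WAPL-NIPBL. The lowest counts were 6 in WAPL without treated replicate 1, 1 in PDS5AB-NIPBL without treated replicate 1, 1 in TIR1 without untreated replicate 2, and 1 in WAPL-NIPBL without treated replicate 1 or untreated replicate 2 or 3. The median log2 difference of the members was 0.46 in WAPL and 0.43 in PDS5AB, beside 0 and 0.04 over all genes tested. It was 0.22 in PDS5AB-NIPBL, 0.16 in TIR1 and 0.11 in WAPL-NIPBL, beside 0, -0.01 and 0.01.

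**Figure D2:**
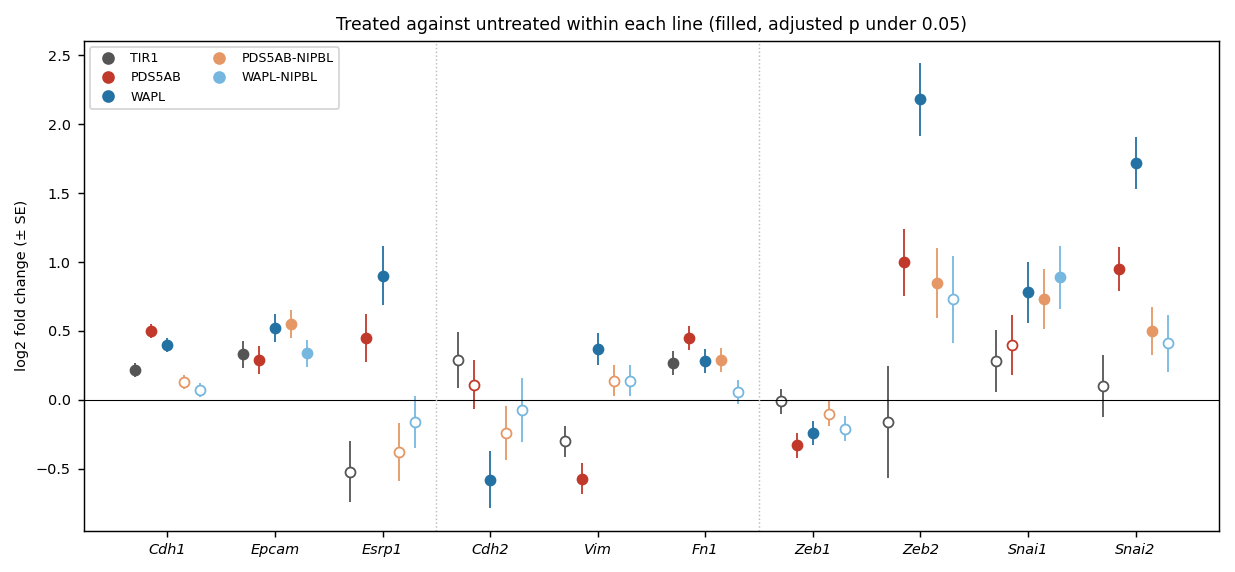
Log2 fold change, treated against untreated, of each gene in each of the 5 lines (points, with bars of 1 SE); filled points passed an adjusted p of 0.05. Zeb2 and Snai2 reach 2.18 and 1.72 in WAPL, Vim lies below 0 in PDS5AB and above 0 in WAPL, and Epcam is filled in all 5 lines.

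Tested directly, the effects of 5 members differed between WAPL and TIR1 (Esrp1, Cdh2, Vim, Zeb2 and Snai2; 20.7% of all genes were called) and of 3 between PDS5AB and TIR1 (Cdh1, Esrp1 and Snai2; 26.3%). Between WAPL-NIPBL and WAPL 4 members differed (Cdh1, Esrp1, Zeb2 and Snai2; 5.19%), between PDS5AB-NIPBL and PDS5AB 2 (Cdh1 and Vim; 9.46%), and between PDS5AB and WAPL 3 (Vim, Zeb2 and Snai2; 12.5%). The count for WAPL-NIPBL minus WAPL was 2 without treated WAPL-NIPBL replicate 1 or untreated WAPL-NIPBL replicate 2. It was also 2 without treated WAPL replicate 2 or 3 or untreated WAPL replicate 1 or 2. The count for PDS5AB minus WAPL was 1 without replicate 2 of treated PDS5AB, untreated PDS5AB or untreated WAPL. With the block these counts were 6 for WAPL-NIPBL minus WAPL, beside 3070 genes, 4 for PDS5AB-NIPBL minus PDS5AB, beside 4847 genes, and 5 for PDS5AB minus WAPL, beside 5422 genes. For both NIPBL lines the edgeR test against the TIR1 effect called 0 of 10 members, against 10.1% of all genes for PDS5AB-NIPBL and 7.04% for WAPL-NIPBL; 2 members in each had an unadjusted p under 0.05, and DESeq2 called 0 in each. Vim was called in both with no filter (adjusted p = 0.00249 and 0.00291) and with the compared groups alone (0.0107 and 0.0101). The NIPBL lines also received dTAG-13, so the second depletion and the second agent cannot be told apart.

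**Figure D3:**
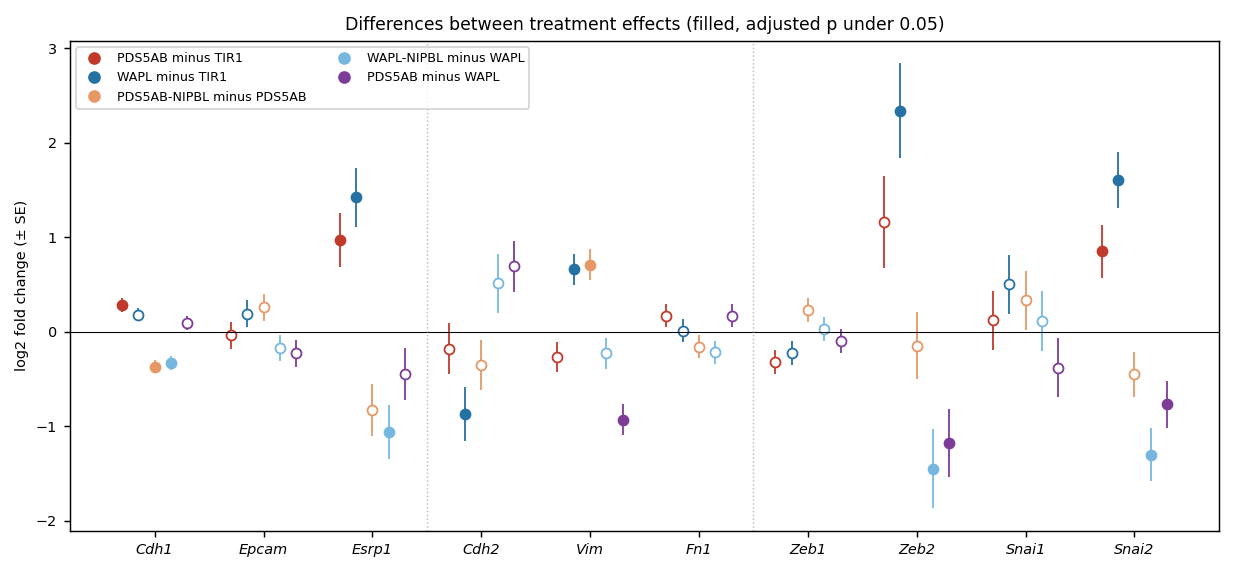
Difference between the treatment effects of 2 lines on the log2 scale, with bars of 1 SE, for 5 of the 7 pairs of lines compared; filled points passed an adjusted p of 0.05. WAPL minus TIR1 reaches 2.34 for Zeb2 and 1.61 for Snai2, while WAPL-NIPBL minus WAPL is at -1.45 and -1.3.

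Pairs of related genes were set side by side per length, as ratios of RPKM within a library. The ratio of Cdh1 to Cdh2 had a median of 353 in untreated WAPL (332 to 398) and 654 after auxin (587 to 1110), without overlap. In PDS5AB-NIPBL it was 229 (221 to 242) and 292 (272 to 332), also without overlap, while it overlapped in PDS5AB, at 117 (101 to 146) and 162 (137 to 173), in TIR1, at 405 (302 to 454) and 373 (327 to 383), and in WAPL-NIPBL, at 762 (603 to 820) and 757 (649 to 1130). The ratio of Cdh1 to Vim went from 1.71 (1.47 to 1.9) to 3.62 (3.25 to 3.66) in PDS5AB and from 1.54 (1.45 to 1.55) to 2.17 (2.1 to 2.19) in TIR1, without overlap in either. It overlapped in WAPL, at 1.42 (1.2 to 1.56) and 1.54 (1.14 to 1.64), in PDS5AB-NIPBL, at 1.24 (1.13 to 1.33) and 1.26 (1.12 to 1.26), and in WAPL-NIPBL, at 1.44 (1.26 to 1.59) and 1.4 (1.19 to 1.49). The ratio over Cdh2 thus separated the groups in WAPL and PDS5AB-NIPBL, and that over Vim in PDS5AB and TIR1.

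Among the repressors, Zeb1 exceeded Zeb2 per length in every library, but by less after treatment in the degron lines. The median ratio of Zeb1 to Zeb2 was 191 (132 to 192) in untreated WAPL and 31.8 (29.4 to 33.6) after auxin, 70.2 (67 to 78.9) and 27.2 (24.2 to 35.4) in PDS5AB, and 85.5 (67.6 to 86.6) and 42.2 (36.5 to 44) in PDS5AB-NIPBL. In none of these lines did the ranges overlap, while in WAPL-NIPBL they did, at 213 (121 to 290) and 87 (85.1 to 122). In TIR1 the ratio was 411 (258 to 602) and 348 (314 to 677), and it rests there on 3 or more Zeb2 counts per library. Snai1 to Snai2 went from a median of 10.6 (9.1 to 11.6) to 5.47 (3.88 to 7.17) in WAPL, without overlap. In PDS5AB it went from 3.42 (3.04 to 4.61) to 2.56 (2.09 to 2.93), also without overlap. The ranges overlapped in TIR1, at 17.1 (7.32 to 17.9) and 14.1 (13.2 to 16.8), and in PDS5AB-NIPBL, at 5.34 (4.73 to 7.46) and 7.2 (5.63 to 7.72). They also overlapped in WAPL-NIPBL, at 7.77 (5.96 to 11.1) and 11.8 (8.56 to 14.1). These ratios are descriptions and were not tested.

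**Figure D4:**
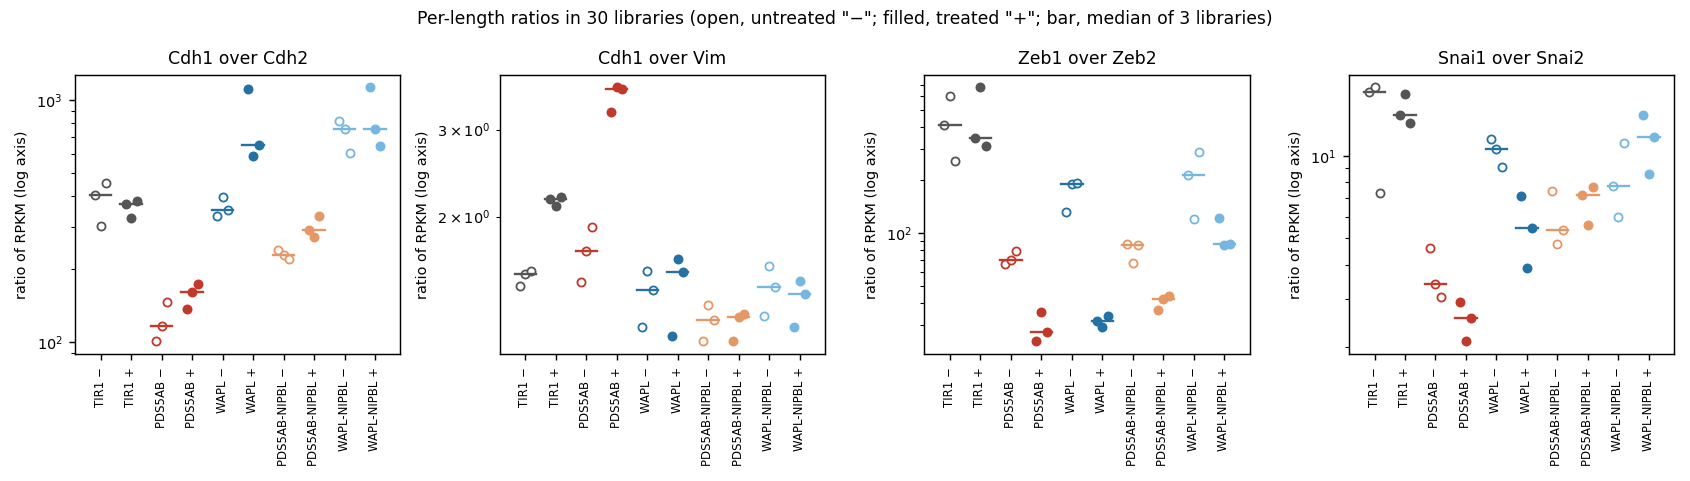
Ratio of RPKM between 2 members in each of the 30 libraries (log axes), with open points for untreated, filled points for treated libraries and a bar at the median of 3. Zeb1 over Zeb2 falls from a median of 191 to 31.8 in WAPL and from 70.2 to 27.2 in PDS5AB, while Cdh1 over Vim goes from 1.71 to 3.62 in PDS5AB.

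The lines already differed before treatment. Untreated PDS5AB had 7 of 10 members called against untreated TIR1 (32% of all genes, 15.5% higher and 16.5% lower), within the same set of library numbers. Snai2 was higher by 2.15 on the log2 scale (SE 0.198, adjusted p = 5.55e-10), Zeb2 by 1.96 (SE 0.333, adjusted p = 2.37e-05), Esrp1 by 1.58 (SE 0.199, adjusted p = 2.04e-07) and Cdh2 by 1.43 (SE 0.196, adjusted p = 8.75e-07). Vim (-0.39), Zeb1 (-0.36) and Cdh1 (-0.24) were lower, with adjusted p of 0.00814, 0.00227 and 0.000358. The Vim call was lost without PDS5AB untreated replicate 3 (0.0647). For Snai2 the untreated difference between PDS5AB and TIR1 was thus larger than the 0.95 that auxin added in PDS5AB.

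PDS5AB-NIPBL had 7 of 10 members called against untreated TIR1 (34.3% of all genes, 16.5% higher and 17.8% lower): Zeb2 at 2.02 (SE 0.337, adjusted p = 2.5e-05), Snai2 at 1.59 (SE 0.207, adjusted p = 5.47e-07), Cdh2 at 0.73, Esrp1 at 0.65, Fn1 at 0.62 and Vim at 0.32 were higher, and Epcam at -0.4 was lower. The Vim call there was lost without TIR1 untreated replicate 2 (adjusted p = 0.073) or 3 (0.0906) or PDS5AB-NIPBL untreated replicate 1 (0.138), and the Esrp1 call without TIR1 untreated replicate 2 (0.0983). WAPL-NIPBL had 6 of 10 (28%, 13.4% higher and 14.6% lower): Esrp1 at 0.99, Epcam at 0.59, Fn1 at 0.57, Vim at 0.36 and Cdh1 at 0.27 were higher and Cdh2 at -0.64 was lower. Its Cdh2 call was lost without TIR1 untreated replicate 2 (0.19) or WAPL-NIPBL untreated replicate 1 (0.106) or 2 (0.102), and its Vim call without TIR1 untreated replicate 2 (0.0561) or 3 (0.0676) or WAPL-NIPBL untreated replicate 1 (0.109). WAPL had 3 of 10 (14%, 6.62% higher and 7.39% lower; 1 without WAPL untreated replicate 3), all higher: Fn1 by 0.58 (SE 0.0873, adjusted p = 2.47e-05), Zeb2 by 1.12 (SE 0.366, adjusted p = 0.0385) and Cdh1 by 0.18 (SE 0.0511, adjusted p = 0.0176). The Cdh1 call was lost without TIR1 untreated replicate 3 (0.0667) or WAPL untreated replicate 3 (0.051), with no filter (0.105) and with the compared groups alone (0.106). The Zeb2 call was lost in 5 of 6 fits without 1 library (0.0602 to 0.177), all but that without TIR1 untreated replicate 3, and with no filter (0.145), DESeq2 (0.0779) or the compared groups alone (0.104). Among untreated differences not called, Vim in WAPL (0.31) and Snai1 in PDS5AB-NIPBL (0.45) were each called in 4 alternative fits. Snai2 in WAPL-NIPBL (0.52) was called in 2, and Epcam in WAPL (-0.25) and Snai1 in PDS5AB (0.35) in 1 each.

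**Figure D5:**
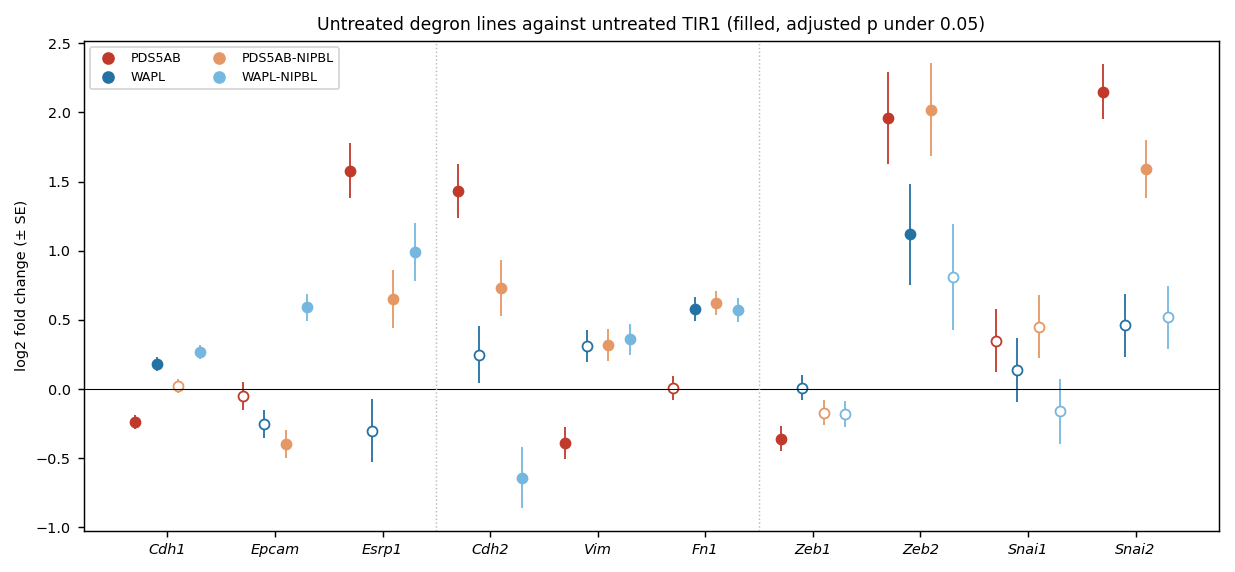
Log2 difference of each gene between the untreated libraries of a degron line and untreated TIR1, with bars of 1 SE; filled points passed an adjusted p of 0.05. Snai2 and Zeb2 reach 2.15 and 1.96 in PDS5AB and 1.59 and 2.02 in PDS5AB-NIPBL.

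Ordered by group mean, Zeb2 and Snai2 ran from both TIR1 groups at the bottom (0.198 and 0.212 CPM for Zeb2, 0.966 and 0.88 CPM for Snai2) to treated WAPL and treated PDS5AB at the top (2.16 and 1.72 CPM for Zeb2, 4.02 and 7.67 CPM for Snai2). Untreated WAPL and untreated WAPL-NIPBL were neighbours in both orders and their ranges overlapped. At the top for Snai2, untreated PDS5AB (3.97 CPM ± 0.233, SD, n = 3) and treated WAPL (4.02 CPM ± 0.378) overlapped, as did treated PDS5AB-NIPBL (3.81 CPM ± 0.253). Over the 10 group means of log2 CPM, Pearson's r was 0.92 between Zeb2 and Snai2, 0.81 between Zeb2 and Snai1, -0.89 between Esrp1 and Zeb1, -0.83 between Zeb1 and Snai2 and -0.76 between Cdh2 and Vim. These pairs were picked as the furthest from 0 among all pairs of members. Between Cdh1 and the repressors r was -0.09 for Zeb1, 0.28 for Zeb2, 0.36 for Snai1 and 0.05 for Snai2. All of these r are descriptions over points that come in pairs from 5 lines.

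By the same measure, among 12938 genes averaging 50 counts or more, the genes most like Snai2 were Epb41l3 (r = 0.987) and Blcap (0.975), and those most like Fn1 were Cd81 (0.986) and Afap1 (0.979). Cdh1 was nearest to Pacsin2 (0.976) and Plcg1 (0.972), Cdh2 to Tmem63c (0.974) and Mrps6 (0.970), and Esrp1 to Ybx2 (0.946) and R74862 (0.939). Snai1 was nearest to Thap2 (0.970) and S100a1 (0.962), Zeb1 to Bcl7b (0.962) and Fryl (0.958), and Vim to the ribosomal protein pseudogene Rpl18-ps2 (0.957), whose reads its parent gene could share, and Pcolce (0.956). Epcam had the least similar neighbours, Zmpste24 (0.928) and Hpn (0.897). Zeb2, with a mean of 26.3 counts, was too low for this search.

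Other genes of the system were counted in 3 lists, each share beside that of all genes tested in the same line. Of 34 genes of epithelial junctions and keratins, 18 rose and 1 fell in PDS5AB (52.9% and 2.94%, beside 25.8% and 20.2% of all genes), with a median log2 difference of 0.32 beside 0.04 over all genes. Krt19, a keratin of simple epithelia, rose from 20.6 to 127 CPM there (log2 fold change 2.62, SE 0.308, adjusted p = 4.48e-08), as did Dsc2, a desmosomal cadherin, from 4.38 to 16.1 CPM (1.87, adjusted p = 1.36e-10). In WAPL 10 rose and 6 fell (29.4% and 17.6%, beside 17% and 15.8%; median 0.07): the claudin gene Cldn6 rose by 1.64 (adjusted p = 1.44e-10) and the keratin gene Krt18 by 1.37 (3.58e-06), and the plakophilin gene Pkp3 (-0.54) fell. In TIR1 8 rose and 2 fell (23.5% and 5.88%, beside 10.4% and 9.59%), Dsp, the desmoplakin gene, from 26.3 to 59.4 CPM (1.17, adjusted p = 1.08e-07) and Pkp3 by -0.58. PDS5AB-NIPBL had 8 higher and 2 lower (23.5% and 5.88%, beside 11.4% and 8.06%), and WAPL-NIPBL 2 higher and 3 lower (5.88% and 8.82%, beside 5.11% and 3.45%). The keratin gene Krt8 rose in both, by 0.91 and 0.89. In WAPL-NIPBL the plakophilin gene Pkp2 fell (-0.42, adjusted p = 0.0127), a call lost without untreated replicate 1 (0.0527) or 2 (0.124) or treated replicate 1 (0.0563) or 3 (0.101).

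Of 30 tested genes of mesenchymal matrix and cytoskeleton, 22 rose and 2 fell in PDS5AB (73.3% and 6.67%, beside 25.8% and 20.2% of all genes), with a median log2 difference of 0.8, although Vim fell there. Cd44, a hyaluronan receptor, rose from 2.5 to 10.8 CPM (log2 fold change 2.11, adjusted p = 1.34e-08) and the matricellular gene Ccn2 from 27.8 to 102 CPM (1.87, adjusted p = 3e-11), whereas Timp1 (-0.58) and Ncam1 (-0.4) fell. WAPL had 12 higher and 6 lower (40% and 20%, beside 17% and 15.8%; median 0.34): Cd44 rose by 1.71 and Ccn2 by 1.32, while Thy1 fell by 1.78 and the collagen gene Col1a1 by 1.39 on the log2 scale. PDS5AB-NIPBL had 11 higher and 1 lower (36.7% and 3.33%, beside 11.4% and 8.06%; median 0.35), with Cd44 at 1.93 and Thy1 at -0.63 (adjusted p = 0.0486), the latter lost without untreated replicate 2 (0.0933) or 3 (0.268) or treated replicate 1 (0.298) or 3 (0.0789) and with the compared groups alone (0.112). In TIR1 4 rose and 2 fell (13.3% and 6.67%, beside 10.4% and 9.59%; median 0.11), and in WAPL-NIPBL 3 rose and 2 fell (10% and 6.67%, beside 5.11% and 3.45%; median 0.13). Pdgfra, a growth factor receptor gene, rose in both of those, by 1.18 and 1.52, and Thy1 fell in both (-0.82 and -0.92). The WAPL-NIPBL call of Thy1 was lost without untreated replicate 3 (0.101) or treated replicate 1 (0.0762).

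Of 27 tested regulators of epithelial and mesenchymal state, 12 rose and 4 fell in PDS5AB (44.4% and 14.8%, beside 25.8% and 20.2% of all genes; median log2 difference 0.29). In WAPL 3 rose and 5 fell (11.1% and 18.5%), near the 17% and 15.8% of all genes (median -0.06). In PDS5AB the epithelial transcription factor gene Grhl3 rose by 1.2 and the TGF-beta effector gene Smad3 by 1.14, while the ligand gene Tgfb2 (-1.1) and Klf4 (-0.86) fell. Tgfb2 and Klf4 fell in WAPL too, by 1.53 and 1.17 on the log2 scale, and Tcf4 (0.53) and Twist1 (0.65, adjusted p = 0.0254) rose. The Twist1 call was lost without untreated replicate 1 (0.0804) or 3 (0.104) or treated replicate 1 (0.0668) or 3 (0.0624) and with no filter (0.0654). TIR1 had 9 higher and 1 lower (33.3% and 3.7%, beside 10.4% and 9.59%; median 0.16), the receptor gene Tgfbr2 at 1.38 and Tgfb1 at -0.41 (adjusted p = 0.0348), the latter lost without any one of untreated replicates 1 and 2 and treated replicates 1, 2 and 3 (0.0774 to 0.267). PDS5AB-NIPBL had 4 higher and 3 lower (14.8% and 11.1%, beside 11.4% and 8.06%; median -0.01), with Tgfb1 at 0.79 and Elf3 at -0.71. WAPL-NIPBL had 0 higher and 4 lower (14.8% lower, beside 3.45%; median 0.03), with Tgfb2 at -0.7 (adjusted p = 0.0293), a call lost without untreated replicate 2 (0.142) or 3 (0.0705) or treated replicate 1 (0.0833), 2 (0.0597) or 3 (0.118), with no filter (0.104) and with the compared groups alone (0.0716). Klf4 is also one of the pluripotent stem cell markers.

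Marker genes of other states moved in the same libraries. Their counts stand against 25.8% of all genes higher and 20.2% lower in PDS5AB, 17% and 15.8% in WAPL, 11.4% and 8.06% in PDS5AB-NIPBL, 5.11% and 3.45% in WAPL-NIPBL and 10.4% and 9.59% in TIR1. Of the 10 pluripotent stem cell markers, 10 fell in PDS5AB, where their summed level went from 6060 to 6540 CPM down to 3740 to 4190 CPM, and 8 in WAPL (6140 to 6370 CPM and 4780 to 4940 CPM). In PDS5AB-NIPBL 9 fell (6520 to 6720 CPM and 5310 to 5540 CPM), in WAPL-NIPBL 8 (6250 to 6500 CPM and 5190 to 5440 CPM), and in TIR1 5 fell and 2 rose (6080 to 6280 CPM and 5890 to 6220 CPM). Of 10 primitive endoderm markers 6 rose and 1 fell in both PDS5AB (427 to 503 CPM and 538 to 641 CPM) and WAPL (529 to 562 CPM and 591 to 661 CPM), and 4, 4 and 2 rose in PDS5AB-NIPBL, WAPL-NIPBL and TIR1. Fibroblast markers summed to between 19.5 and 45.6 CPM in a library, with Dcn and Twist2 at 0 in both TIR1 groups and in untreated WAPL, PDS5AB-NIPBL and WAPL-NIPBL. In PDS5AB 4 of 5 tested rose (28.3 to 31.2 CPM and 44.5 to 45.6 CPM), in WAPL 1 rose and 3 fell, in PDS5AB-NIPBL 2 rose and 1 fell, in WAPL-NIPBL 1 fell and in TIR1 1 rose and 1 fell. Of 5 tested neural progenitor markers, 2 rose and 2 fell in PDS5AB (summed level 151 to 160 CPM untreated and 178 to 181 CPM treated), 2 rose and 1 fell in PDS5AB-NIPBL (204 to 232 CPM and 263 to 294 CPM), 1 rose and 1 fell in WAPL (189 to 213 CPM and 200 to 220 CPM), 1 fell in WAPL-NIPBL (254 to 283 CPM and 253 to 278 CPM) and 2 fell in TIR1 (250 to 266 CPM and 209 to 230 CPM). Mesoderm markers summed to between 13.5 and 35.8 CPM in a library, and of 8 tested 2 rose and 2 fell in PDS5AB, 2 rose and 1 fell in WAPL, 1 rose and 2 fell in PDS5AB-NIPBL, 1 rose and 1 fell in WAPL-NIPBL and 1 rose in TIR1. The part of these markers in the changes of the members was not tested. The fibroblast markers Col1a1, Col1a2, Col3a1, Thy1, Pdgfrb and Postn also belong to the list of mesenchymal matrix and cytoskeleton, and Twist2 to that of regulators. Sparc, a primitive endoderm marker, is in the matrix list too. The marker counts therefore share genes with the list counts above.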

How the data were processed

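RNA of 30 libraries was sequenced with a stranded poly(A) kit, per the labels' protocols. The molecule and library source labels name genomic DNA instead; the protocols and the counting over exons were followed here. The deposited table holds raw read counts per gene, made by the authors with featureCounts 2.0.1 for read pairs, with no strand option, on the GENCODE vM23 annotation of GRCm38, per the file headers. Reads of genes that overlap on opposite strands therefore cannot be told apart. STAR 2.7.7a, cutadapt and deepTools are listed in the submitters' processing notes. Gene length in bases comes from the same deposited table.

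Here, Ensembl identifiers were matched to symbols (55154 of 55421, 99.5%). In R 4.3.3, edgeR 4.0.16 fitted 10 group means to all libraries with TMM scaling (factors 0.95 to 1.13), filterByExpr with a minimum count of 10 and 20 residual degrees of freedom. The quasi-likelihood test was adjusted by Benjamini-Hochberg over 19868 genes in each of 16 comparisons (5 treatment effects, 4 untreated comparisons and 7 differences between effects) and called under 0.05. The common biological coefficient of variation was 9.15%, and the lowest correlation between libraries of a group was 0.987. The SE is the log2 fold change divided by the root of F. The fitting script was tested on simulated data. RPKM was computed from CPM and exon length, and log2 CPM used a prior count of 2.

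Replicate numbers in the labels were checked for pairing through the correlation of same-numbered deviations from group means. It was 0.109 to 0.333 for PDS5AB, 0.207 to 0.331 for WAPL, 0.163 to 0.222 for PDS5AB-NIPBL and 0.186 to 0.249 for WAPL-NIPBL, above 0.1 in every pair, so the numbers were taken to pair treated and untreated libraries of these lines, from the data and not from a label. It was not above 0.1 in TIR1.

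The members and gene lists were chosen with earlier results of these data known. Genes named from the 3 pathway lists are, among those called with a mean of at least 50 counts, the 2 with the largest change in each direction for PDS5AB and WAPL, and the 1 largest for the other lines. For each member with a mean of at least 50 counts, the 2 most correlated genes are named. A gene that the rule selects from the epithelial list is not reported here. The alternatives were DESeq2 1.42.0 and its size factors (median of ratios), no filter, the compared groups alone, the replicate block and leaving out each library.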

Additional observations from a re-analysis of the deposited data

Results flagged for a closer look

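The treatment effect of a member differed between lines by the direct edgeR test in 17 cases, each an adjusted p under 0.05 for the difference of 2 log2 fold changes. PDS5AB minus TIR1 gave 0.28 for Cdh1, 0.97 for Esrp1 and 0.85 for Snai2. WAPL minus TIR1 gave 1.42 for Esrp1, -0.87 for Cdh2, 0.66 for Vim, 2.34 for Zeb2 and 1.61 for Snai2. These 8 share the TIR1 libraries, whose treated and untreated members carry library numbers from different sets, so number set and treatment cannot be told apart in them. PDS5AB-NIPBL minus PDS5AB gave -0.37 for Cdh1 and 0.71 for Vim. WAPL-NIPBL minus WAPL gave -0.33 for Cdh1, -1.06 for Esrp1, -1.45 for Zeb2 and -1.3 for Snai2. PDS5AB minus WAPL gave -0.93 for Vim, -1.18 for Zeb2 and -0.77 for Snai2.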

How the results depend on the processing

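Of 160 member results (10 genes in 16 comparisons), 68 were called, 39 of them under every alternative run, and none of the 68 changed direction. The other 29 lost the call under at least 1 alternative, and 32 results that were not called became so under at least 1. Without a filter 12 calls were lost and 9 gained, in fits of the compared groups alone 9 and 4, with DESeq2 2 and 4, with its size factors 0 and 0, and with 1 library left out 28 and 11. Without a filter the count of members called was 3 in place of 5 for the PDS5AB-NIPBL effect, 2 in place of 4 for WAPL-NIPBL minus WAPL, 1 in place of 3 for PDS5AB minus WAPL, and 1 and 2 in place of 0 for PDS5AB-NIPBL and WAPL-NIPBL minus TIR1. In fits of the compared groups alone the count was 2 for WAPL-NIPBL minus WAPL and 1 for each NIPBL line minus TIR1, and 2122 in place of 1398 of all genes were called for WAPL-NIPBL minus TIR1. The causes were not tested.

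With 1 library left out, the counts ran over 1 to 3 members for TIR1 treated against untreated, 6 to 9 members for WAPL treated against untreated, 1 to 4 members for PDS5AB-NIPBL treated against untreated, 1 to 2 members for WAPL-NIPBL treated against untreated, 1 to 3 members for WAPL untreated against TIR1 untreated, 2 to 4 members for WAPL-NIPBL minus WAPL and 1 to 3 members for PDS5AB minus WAPL. Of all genes, 1621 and 1599 in place of 2785 were called for untreated WAPL against TIR1 without replicate 2 of TIR1 or of WAPL.

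With the replicate block no member call was lost and 28 were gained. In comparisons where the numbers pair the libraries its values stand beside the results; the genes called there rose from 3874 to 6377 for PDS5AB-NIPBL, from 1702 to 4152 for WAPL-NIPBL, from 1879 to 4847 for PDS5AB-NIPBL minus PDS5AB, from 1032 to 3070 for WAPL-NIPBL minus WAPL and from 2481 to 5422 for PDS5AB minus WAPL. Members called with the block were 4 for WAPL-NIPBL, 6 for WAPL-NIPBL minus WAPL, 4 for PDS5AB-NIPBL minus PDS5AB and 5 for PDS5AB minus WAPL. Where libraries share only a number, the block gave 5 members in place of 3 for the TIR1 effect (7065 in place of 3962 genes), 5 in place of 3 for untreated WAPL against TIR1, 6 in place of 3 for PDS5AB minus TIR1 (7983 in place of 5224 genes), 8 in place of 5 for WAPL minus TIR1 (7034 in place of 4122 genes), and 2 and 4 in place of 0 for PDS5AB-NIPBL and WAPL-NIPBL minus TIR1 (4996 and 4436 in place of 2005 and 1398 genes). Depth limits Zeb2 most, with 3 counts in untreated TIR1 replicate 2.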
